A study of Mus musculus with 12 samples.

Results

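Glycolysis is represented here by 10 genes listed by name, with no threshold on a measured value but with earlier results of these data known: Hk1, Hk2, Pfkl, Pfkp, Pfkfb3, Aldoa, Pgk1, Eno1, Pkm and Ldha. All 10 were found by Ensembl ID among the 37620 genes of the count table. The samples were described as bone endothelial cells (BECs) taken fresh from the tibia and purified by endomucin, a surface glycoprotein of bone capillaries. The methods of the study name femurs as well as tibiae for the isolation. The strain of the mice is labelled c57/Bl6. Females and males were taken at 2 weeks and at 65 weeks of age, with 3 libraries in each of the 4 groups and 12 altogether. The labels name no allele, transgene or treatment for any of them. Per the methods of the study, the 3 samples of each set with the best RNA were taken forward. The labels do not say that each library came from a separate animal, so the p-values measure the spread between these samples, which may be technical.

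Glycolysis converts glucose to pyruvate in the cytosol and yields ATP without oxygen, and lactate dehydrogenase turns pyruvate into lactate when it is not passed to the mitochondria. Endothelial cells in culture and in sprouting vessels are known to draw much of their ATP from this pathway, and Pfkfb3 is widely used as a handle on it in such cells. Several steps are served by isozymes from separate genes, and the switch between them is a classical feature of tissues and of blood cell lineages. The genes of the lower steps are also among those with the most processed pseudogenes, which are intronless copies of an mRNA inserted elsewhere in the genome.

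Total counts ran from 26044743 to 44569600 per library. Marker genes of several cell types differed in level between the ages. Emcn, the gene of the surface protein used for purification, was measured at 115 to 227 CPM (counts scaled to 1e6 per library) in the 6 libraries at 2 weeks and at 2.80 to 6.98 CPM in the 6 libraries at 65 weeks. The summed level of 12 endothelial markers was 2308 to 4307 CPM at 2 weeks and 160.5 to 261 CPM at 65 weeks, and none of the 12 was at 0 in any group. Over the same libraries the summed level of 10 neutrophil markers was 3989 to 6301 CPM at 2 weeks and 12251 to 26478 CPM at 65 weeks, and that of 7 osteoblast markers 3017 to 4498 CPM and 73.0 to 133 CPM. The sum of 7 B cell markers was 459.9 to 689 CPM and 7121 to 18754 CPM, but most of it was Ighm. Without Ighm it was 194 to 286 CPM and 313 to 1186 CPM, 2.96-fold higher on average, and Vpreb3 was at 12.1 to 19.8 CPM and 4.22 to 17.6 CPM. Of the other lists, the mean sum was 116-fold lower at 65 weeks for chondrocytes (1 of 6 genes at 0 in the 65-week females), 8.35-fold lower for megakaryocytes and 2.29-fold lower for osteoclasts, and it was 3.39-fold higher for plasma cells, 2.39-fold higher for T and NK cells, 1.35-fold higher for macrophages and 1.34-fold higher for cell cycle genes. The plasma cell rise was mostly Jchain, with means of 4.98 CPM in 2-week females and 6.62 in 2-week males, and 957 and 956 at 65 weeks. Mzb1 and Prdm1 were also higher at 65 weeks. Sdc1 was lower (96.2 and 118 CPM, then 39.1 and 37.9) and Xbp1 was not higher (214 and 260, then 213 and 169). Cd4 rose most in the T and NK cell list (47.1 and 57.1 CPM, then 121 and 127), whose other genes were also higher. Mki67 rose most in the cell cycle list (1139 and 494 CPM, then 1662 and 1382). Cdk1 was lower (244 and 212, then 186 and 180), and the rest of that list was higher or differed in direction between the sexes. In the macrophage list Mrc1 was lower (569 and 774 CPM, then 490 and 537), and the others were higher but for C1qc in males. Erythroid markers had the largest sum and a similar one at both ages, with means of 40856 and 42625 CPM. The erythroid sums overlapped between the ages. So did those of macrophages (2160 to 3932 CPM at 2 weeks, 2959 to 4539 at 65 weeks) and cell cycle genes (1814 to 4277 and 2565 to 4631 CPM). All of the other lists moved with age alongside every age difference given below. The part of any list in those differences was not tested, and in such bulk samples fewer cells of a type and less RNA per cell cannot be told apart. Male 65-week replicate 3 stood apart from the other male libraries of its age: without it, 5.65% of genes differed between the sexes at 65 weeks, against 0.042% with it.

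Whether reads of these genes could be lost to, or gained from, copies elsewhere was examined first. Searching GRCm39 for every window of 100 nt of the canonical transcript, the read length used, showed that 89.8% of the windows of Pgk1 and 51.87% of those of Eno1 recurred exactly at other loci. The share was 12.39% for Pkm and 1.88% for Ldha. No such window was found for Hk1, Hk2, Pfkl, Pfkp, Pfkfb3 or Aldoa, so the counts of these 6 genes do not rest on reads of this kind. The start of the coding sequence of Pgk1 and the same stretch of its processed pseudogene Gm5537 on chromosome 3 show the problem. They are identical over 60 nt (mismatches would be in capitals):
Pgk1: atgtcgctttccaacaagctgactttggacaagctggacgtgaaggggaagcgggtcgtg
Gm5537: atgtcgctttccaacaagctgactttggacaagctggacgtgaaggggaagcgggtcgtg
Aldoa is shown as the contrast. It and its intronless copy Aldoart1 on chromosome 4 differ at 6 of the first 60 nt, given in capitals, so a read across this stretch can be assigned:
Aldoa: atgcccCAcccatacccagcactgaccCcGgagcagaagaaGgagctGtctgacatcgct
Aldoart1: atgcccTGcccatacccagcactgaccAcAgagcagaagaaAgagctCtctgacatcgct
Of the copies found, 31 had a line of their own in the count table, and 21 of these were at 0 in all 12 libraries. Gm4735, a transcribed pseudogene of Eno1, held the most, with 24 to 68 counts per library, and Pgk1-rs7, a copy of Pgk1, held 1 count in all. The copies of Eno1 together held 0.211% to 0.639% of the joint count of gene and copies, and those of Aldoa, Pgk1, Pkm and Ldha at most 0.0232%. How reads that map to several places were treated is not stated, so the levels of Pgk1 and Eno1 in particular may be too low by an unknown share. Adding the counts of the copies to their parents changed no call in any comparison below.

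Promoters are shown for the gene that rose most with age, for Ldha, which fell, and for Pgk1, which did not pass the test in either sex. These are the 250 nt before a listed start of each gene (Ldha has 2 listed promoters, and the other holds no match), taken from RefSeq on GRCm38.p6 and written 5′ to 3′ on the strand of the gene. Capitals mark the letters ACGTG, the core recognised by hypoxia-inducible factors, or CACGT, the same core on the other strand, with overlapping matches counted as 1 site.
Hk2, chr6:82774455-82774704, minus strand: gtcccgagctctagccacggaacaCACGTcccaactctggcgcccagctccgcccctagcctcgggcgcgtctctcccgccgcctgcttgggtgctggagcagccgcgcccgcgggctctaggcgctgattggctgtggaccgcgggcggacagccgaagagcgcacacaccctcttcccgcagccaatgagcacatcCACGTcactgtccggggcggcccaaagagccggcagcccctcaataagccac
Ldha, chr7:46845554-46845803, plus strand: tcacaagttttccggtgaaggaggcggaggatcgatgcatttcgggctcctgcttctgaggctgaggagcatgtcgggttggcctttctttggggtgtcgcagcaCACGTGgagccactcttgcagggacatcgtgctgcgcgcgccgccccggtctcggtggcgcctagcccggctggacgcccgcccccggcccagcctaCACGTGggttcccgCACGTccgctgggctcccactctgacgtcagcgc
Pgk1, chrX:106186850-106187099, plus strand: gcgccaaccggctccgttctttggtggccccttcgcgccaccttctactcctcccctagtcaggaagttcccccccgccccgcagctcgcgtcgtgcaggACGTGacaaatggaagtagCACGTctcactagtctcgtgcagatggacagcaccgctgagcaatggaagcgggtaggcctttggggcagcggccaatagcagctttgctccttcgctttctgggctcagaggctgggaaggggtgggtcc
Hk2 held 2 such sites, at 226 and 52 nt before its start, Ldha held 3, at 145, 48 and 34 nt, and Pgk1 held 2, at 150 and 131 nt. Of the 18 listed promoters of the 10 genes, 8 held the core, against 16.6% of all 32851 promoters. They belonged to 6 genes, namely these 3 with Pfkfb3, Aldoa and Pkm, against 18.5% of all genes with a listed promoter, and a gene with more promoters has more chances of a match. The core was therefore shared by genes that were measured higher, lower and without a call at 65 weeks, and a match of letters is no evidence of binding.

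The 10 genes took a small share of all counts, which was highest in the 65-week males. Their sum was 0.249% to 0.282% of the library in 2-week females, 0.263% to 0.285% in 2-week males, 0.241% to 0.260% in 65-week females and 0.286% to 0.297% in 65-week males. To compare genes with each other, CPM was divided by the length of the canonical transcript. On this scale Ldha was the highest gene at 2 weeks, at 299.5 ± 19.2 CPM per kb in females and 329 ± 11.97 CPM per kb in males (SD, n = 3 each). Pkm and Aldoa followed at 276 ± 30.3 and 271 ± 20.03 CPM per kb in females, and in these females the libraries of Ldha overlapped with those of Pkm and those of Pkm with those of Aldoa. In the males Ldha lay above Pkm without overlap. Eno1 (169 ± 17.2), Pgk1 (119 ± 9.70), Hk1 (71.8 ± 9.19) and Pfkl (22.5 ± 3.32 CPM per kb) came next without overlap between neighbours in the females. Pfkp (7.52 ± 0.342) and Pfkfb3 (7.05 ± 0.307) overlapped, and Hk2 was last at 2.91 ± 0.233 CPM per kb. The same order held in 2-week males.

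At 65 weeks Ldha had moved from the first to the third place in both sexes, behind Aldoa and Pkm, which overlapped. The level of Ldha per length was then 176 ± 1.64 CPM per kb in females and 201 ± 13.2 CPM per kb in males, which overlapped with Eno1 at 164 ± 14.0 and 179 ± 7.33 CPM per kb. Eno1 and the genes after it kept their places. With the length of all annotated exons in place of the canonical transcript, Pgk1 moved up to the second place in every group and Eno1, whose annotated exons sum to 11500 nt against 2293 nt in the canonical transcript, moved below the fourth place, so the middle of the order depends on the length chosen. Pfkl, Pfkfb3, Pfkp and Hk2 came last on both scales, in an order that differed between the scales.

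**Figure D1:**
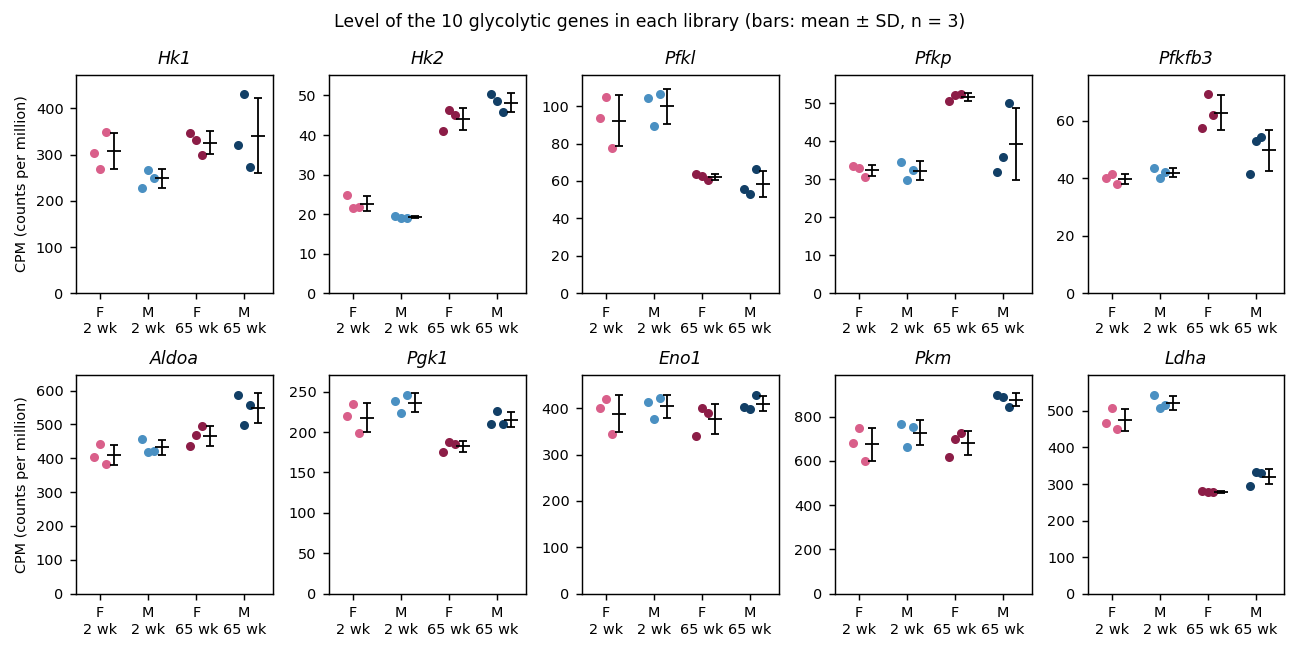
Level of each gene in CPM (vertical axis, from 0) in every library of the 4 groups (F, females; M, males; wk, weeks), with the mean and SD of 3 libraries beside the points. Hk2 sits higher and Ldha and Pfkl sit lower in all 65-week libraries than in any 2-week library, and male 65-week libraries of Pfkp are spread from 32.0 to 50.03 CPM.

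How the genes differed between 65 and 2 weeks was tested within each sex (edgeR quasi-likelihood test on TMM-scaled counts, Benjamini-Hochberg adjustment over all genes). In females 6 of the 10 genes were called, 4 higher and 2 lower, where 59.7% of all genes tested were called (30.2% higher and 29.5% lower). In males 7 of the 10 were called, 5 higher and 2 lower, where 55.5% of all genes were called (27% higher and 28.5% lower). The CPM of the age groups did not overlap in 6 of the 10 genes in each sex, against 69.2% of all genes in females and 65.4% in males. The share of the 10 genes that changed was thus near that of genes at large. Hk2, Pfkfb3 and Aldoa were higher in both sexes and Pfkl and Ldha were lower in both, which makes 5 genes called the same way, against 47.2% of all genes tested in both sexes (22.7% higher and 24.5% lower). The median log2 fold change of the 10 genes was 0.18 in females and 0.37 in males, and that of all genes was 0.0056 and 0.0080. The TMM factors ran from 1.03 to 1.05 at 2 weeks and from 0.93 to 1.01 at 65 weeks. Scaled by library totals alone, the median of all genes shifted to -0.13 in females and -0.11 in males, and the calls became 3 higher and 3 lower in females and 2 higher and 2 lower in males, where 60.3% and 54.6% of all genes were called. Hk2, Pfkl and Ldha were called in the same direction in both sexes under every alternative run.

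The hexokinases trap glucose in the cell by phosphorylating it. Hk1, the isozyme of most tissues (ENSMUSG00000037012, GRCm39 chromosome 10, 62104621 to 62215687, minus strand), was measured at 304, 269.9 and 348 CPM in females at 2 weeks and at 347, 331 and 299 CPM in females at 65 weeks. In males it was at 228, 268 and 249 CPM at 2 weeks and at 321, 430.0 and 272 CPM at 65 weeks. The female groups overlapped and the male groups did not, with male 65-week replicate 2 the highest of all libraries. The log2 fold change was 0.22 ± 0.12 (SE) in females (adjusted p = 0.155) and 0.58 ± 0.18 in males (adjusted p = 0.0289). The male call did not hold when any of 5 of the 6 male libraries was left out: the adjusted p was then 0.102, 0.0587 and 0.0861 without 2-week replicates 1, 2 and 3 and 0.0625 and 0.0619 without 65-week replicates 1 and 2. Nor did it hold with scaling by library totals (log2 0.46, adjusted p = 0.0521).

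Hk2 (ENSMUSG00000000628, chromosome 6, 82699740 to 82751469, minus strand) is the inducible isozyme of muscle and fat, and showed the largest difference of the 10 genes in both sexes. It was measured at 24.8, 21.5 and 21.8 CPM in females at 2 weeks and at 40.9, 46.4 and 44.97 CPM in females at 65 weeks. In the male libraries it was at 19.5, 19.0 and 19.1 CPM at 2 weeks and at 50.2, 48.6 and 45.7 CPM at 65 weeks. Every 65-week library lay above every 2-week library. Hk2 was 2.13-fold higher in females (log2 1.09 ± 0.10, adjusted p = 4.01e-05) and 2.73-fold higher in males (log2 1.45 ± 0.11, adjusted p = 2.22e-05). These values came from 693 to 1581 counts per library, and the log2 fold change ranged over the alternatives from 0.96 to 1.14 in females and from 1.33 to 1.49 in males.

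Phosphofructokinase commits sugar phosphate to glycolysis. Pfkl, its liver-type subunit (ENSMUSG00000020277, chromosome 10, 77818084 to 77845922, minus strand), was measured at 93.8, 105 and 77.7 CPM in females at 2 weeks against 63.7, 62.4 and 60.5 CPM in females at 65 weeks. In males it was at 105, 89.3 and 106 CPM against 55.7, 53.1 and 66.2 CPM. All 65-week libraries lay below all 2-week libraries. The log2 fold change was -0.43 ± 0.10 in females (adjusted p = 0.00695) and -0.66 ± 0.11 in males (adjusted p = 0.00147). A stretch of 993 nt of its transcripts is also annotated in the neighbouring gene Cfap410, which held 169 to 403 counts per library.

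Pfkp, the platelet-type subunit (ENSMUSG00000021196, chromosome 13, 6629798 to 6698970, minus strand), differed in the other direction. It was measured at 33.5, 32.9 and 30.7 CPM in females at 2 weeks and at 50.5, 52.2 and 52.3 CPM in females at 65 weeks, groups that did not overlap. In the male libraries it was at 34.6, 29.8 and 32.4 CPM and at 32.0, 35.8 and 50.03 CPM, where only 65-week replicate 3 lay well above the rest. Pfkp was 1.75-fold higher in females (log2 0.81 ± 0.07, adjusted p = 4.19e-05), and in males its log2 fold change of 0.39 ± 0.15 did not pass the test (adjusted p = 0.0594). Over the alternatives the male value ran from 0.20 without 65-week replicate 3 (adjusted p = 0.128) to 0.49 without 65-week replicate 1 (adjusted p = 0.0416). It passed in the latter and with all 12 libraries in 1 model (adjusted p = 0.0174), and the highest adjusted p was 0.199, with scaling by library totals. A stretch of 1831 nt of its transcripts is also annotated in the neighbouring gene Pitrm1, which held 2200 to 4981 counts per library.

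Pfkfb3 (ENSMUSG00000026773, chromosome 2, 11476244 to 11558888, minus strand) makes the sugar bisphosphate that activates phosphofructokinase. It was measured at 40.0, 41.4 and 37.9 CPM in females at 2 weeks and at 57.4, 69.1 and 62.0 CPM in females at 65 weeks. In males it was at 43.5, 40.2 and 42.1 CPM and at 41.6, 53.1 and 54.4 CPM. The female groups did not overlap, while male 65-week replicate 1 lay within the 2-week range. Pfkfb3 was 1.74-fold higher in females (log2 0.80 ± 0.09, adjusted p = 0.000150) and 1.28-fold higher in males (log2 0.36 ± 0.11, adjusted p = 0.0265). The male call did not hold without any 1 of the 2-week libraries (adjusted p = 0.0678, 0.105 and 0.0910 without replicates 1, 2 and 3) or without 65-week replicate 2 (adjusted p = 0.0695). Nor did it hold with the replicate number as a block (adjusted p = 0.0610), with no filter on low counts (adjusted p = 0.0648) or with scaling by library totals (adjusted p = 0.131).

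Aldoa, the aldolase that splits the sugar bisphosphate (ENSMUSG00000030695, chromosome 7, 126393822 to 126399923, minus strand), was measured at 403, 442 and 383 CPM in females at 2 weeks and at 435, 469.5 and 494 CPM in females at 65 weeks. In the male libraries it was at 458, 418 and 422 CPM and at 588, 499.7 and 558 CPM. The female groups overlapped by 1 library on each side and the male groups did not overlap. Its log2 fold change was 0.32 ± 0.08 in females (adjusted p = 0.00955) and 0.46 ± 0.11 in males (adjusted p = 0.00896). The female call did not hold without 2-week replicate 1 (log2 0.26, adjusted p = 0.100) or replicate 3 (log2 0.22, adjusted p = 0.0737), or with scaling by library totals (log2 0.19, adjusted p = 0.0925).

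Pgk1 makes ATP with a phosphate taken from a bisphosphoglycerate, and Eno1 makes phosphoenolpyruvate further down. Pgk1 (ENSMUSG00000062070, chromosome X, 105230706 to 105247305, plus strand) was at 219.6, 234 and 199 CPM in females at 2 weeks, 175, 187 and 185 CPM in females at 65 weeks, 239, 223 and 246 CPM in males at 2 weeks and 209.8, 226 and 209.8 CPM in males at 65 weeks. On the TMM scale its log2 fold change was -0.12 ± 0.08 in females (adjusted p = 0.221) and -0.02 ± 0.10 in males (adjusted p = 0.903). The female groups did not overlap in CPM, and with library totals in place of TMM the female value was -0.26 (adjusted p = 0.0277). It also passed without female 2-week replicate 3 (log2 -0.24, adjusted p = 0.0331).

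Eno1 (ENSMUSG00000063524, chromosome 4, 150321073 to 150337027, plus strand) was at 343 to 419 CPM in females at 2 weeks, 340.3 to 401 CPM in females at 65 weeks, 376 to 421 CPM in males at 2 weeks and 397 to 429 CPM in males at 65 weeks. The groups overlapped in both sexes. Its log2 fold change was 0.10 with a 95% interval of -0.10 to 0.29 in females (adjusted p = 0.428) and 0.14 with an interval of -0.05 to 0.32 in males (adjusted p = 0.244), and no alternative gave a call.

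Pkm, the last enzyme of the pathway (ENSMUSG00000032294, chromosome 9, 59563364 to 59586663, plus strand), gives M1 and M2 forms by splicing, which counts per gene do not tell apart. It was measured at 680.4, 748 and 600.1 CPM in females at 2 weeks and at 619.8, 701 and 726 CPM in females at 65 weeks. In males it was at 765, 662 and 754 CPM at 2 weeks and at 899.6, 889 and 845 CPM at 65 weeks. The male groups did not overlap and the female groups did. The log2 fold change was 0.15 ± 0.10 in females (adjusted p = 0.218) and 0.39 ± 0.11 in males (adjusted p = 0.01997). In males it did not pass without any 1 of the 2-week libraries or without 65-week replicate 1, where the adjusted p was 0.0506, 0.0916, 0.0564 and 0.0587, in that order. Nor did it pass in males with scaling by library totals (log2 0.27, adjusted p = 0.0638).

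Ldha (ENSMUSG00000063229, chromosome 7, 46490899 to 46505061, plus strand) encodes the muscle-type subunit of lactate dehydrogenase. It was measured at 467, 509 and 450.2 CPM in females at 2 weeks and at 282, 277 and 278 CPM in females at 65 weeks. In the male libraries it was at 544, 508 and 516 CPM at 2 weeks and at 296, 334 and 329 CPM at 65 weeks. All 6 libraries at 65 weeks lay below all 6 at 2 weeks. Ldha was 1.55-fold lower in females (log2 -0.63 ± 0.07, adjusted p = 0.000135) and 1.51-fold lower in males (log2 -0.59 ± 0.10, adjusted p = 0.00135).

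**Figure D2:**
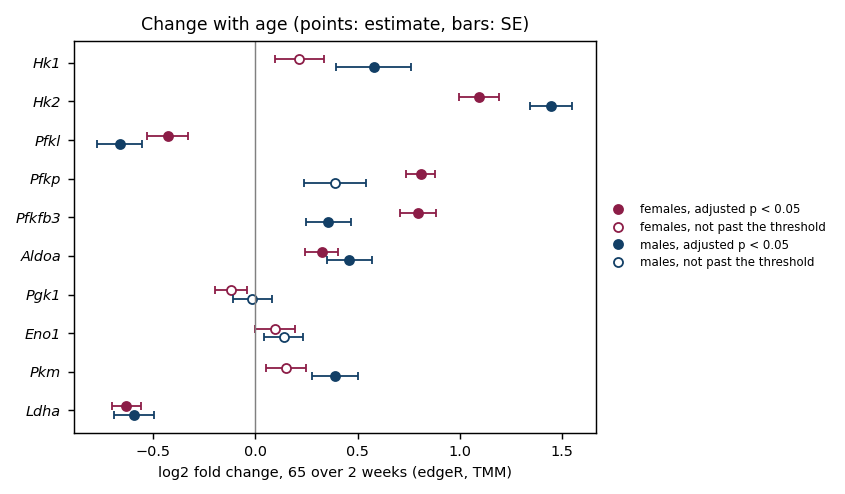
Change of each gene between 65 and 2 weeks as log2 fold change (horizontal axis) with its SE, in females and in males (6 libraries each); filled points passed an adjusted p of 0.05. Hk2 lies farthest to the right at 1.09 and 1.45, and Pfkl and Ldha are the 2 genes left of 0 with filled points in both sexes.

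The ratio of a pair of isozymes within a library does not depend on how libraries are scaled, and was compared between ages by exact permutation of the age labels within each sex. The ratio of Hk2 to Hk1 counts was 0.0816, 0.0797 and 0.0626 in 2-week females and 0.118, 0.140 and 0.1505 in 65-week females. In males it was 0.0854, 0.0710 and 0.0765 and then 0.157, 0.113 and 0.168. The age groups did not overlap in either sex, and the ratio rose by 0.88 on the log2 scale, the mean of 0.87 in females and 0.89 in males.

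The ratio of Pfkp to Pfkl was 0.357, 0.314 and 0.395 in 2-week females, 0.793, 0.836 and 0.865 in 65-week females, 0.331, 0.334 and 0.306 in 2-week males and 0.575, 0.675 and 0.755 in 65-week males. It rose by 1.13 on the log2 scale (1.23 in females, 1.04 in males), the largest shift of the 3 ratios, as the fall of Pfkl and the higher values of Pfkp add up. No 65-week library overlapped with a 2-week library.

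Ldhb, which encodes the heart-type subunit of lactate dehydrogenase and is no member of the 10, fell with age more than Ldha did. It was at 23.5 to 34.6 CPM in the 6 libraries at 2 weeks and at 9.78 to 14.3 CPM in the 6 at 65 weeks, with a log2 fold change of -1.16 ± 0.18 in females (adjusted p = 0.000716) and -1.36 ± 0.12 in males (adjusted p = 5.46e-05). The ratio of Ldha to Ldhb was accordingly 14.7 to 19.2 at 2 weeks and 19.4 to 31.7 at 65 weeks, and rose by 0.65 on the log2 scale (0.53 in females, 0.76 in males), although both genes were lower. Each of the 3 ratios gave p = 0.005 (two-sided exact permutation, 400 relabelings, also 0.005 after adjustment over the 3 ratios), which is the smallest p the design can give. The share of other gene pairs that reach this p was not computed. Of single genes, 69.2% in females and 65.4% in males did not overlap between the ages. Hk2, Pfkl, Ldha and Ldhb were themselves called in both sexes, so these p-values are no separate evidence of a shift between isozymes.

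**Figure D3:**
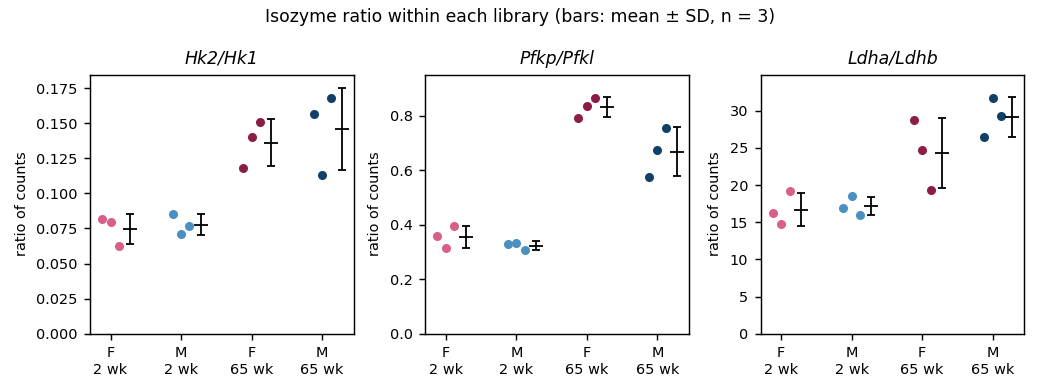
Ratio of counts of Hk2 to Hk1, Pfkp to Pfkl and Ldha to Ldhb (vertical axes, from 0) in every library of the 4 groups, with the mean and SD of 3 libraries. All 65-week points lie above all 2-week points in each panel; the nearest are 19.2 and 19.4 for Ldha to Ldhb.

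The other genes of glycolysis were examined as 3 lists with 37 genes, of which 34 had enough counts to be tested. In females 10 were higher and 9 lower at 65 weeks, against 30.2% and 29.5% of all genes, and in males 9 were higher and 8 lower, against 27% and 28.5%. Among them 8 were higher and 8 lower in both sexes, where 22.7% and 24.5% of all genes were, so these counts lie near those of genes at large. The genes at the steps between the members moved apart. Gpi1, which turns glucose phosphate into fructose phosphate, was higher (log2 0.57 ± 0.08 in females and 0.76 ± 0.10 in males, adjusted p = 0.000493 and 0.000449). Tpi1 (-0.49 and -0.29, adjusted p = 0.000447 and 0.0207) and Gapdh (-0.41 and -0.30, adjusted p = 0.00239 and 0.0301), the enzymes of the triose phosphates, were lower. Gapdh was at 848 to 1052 CPM at 2 weeks and at 612 to 777 CPM at 65 weeks. For Pgam1, the phosphoglycerate mutase, values were -0.10 and -0.05 and did not pass (adjusted p = 0.365 and 0.704).

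Among the isozymes with narrower tissue ranges, some moved by more than any of the 10 genes. Hk3, the hexokinase of myeloid cells, was at 37.0 to 54.1 CPM in all 2-week libraries, at 118 to 139 CPM in females at 65 weeks and at 176 to 224 CPM in males at 65 weeks, and was 2.82-fold and 5.20-fold higher. Eno3, the muscle enolase, was higher by 1.98 and 1.86 on the log2 scale.

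Of the 9 glucose and lactate transporters, 2 were higher and 1 lower in both sexes, which is no more than the 22.7% and 24.5% of all genes. Slc16a3, a transporter that exports lactate, was at 30.1 to 40.3 CPM at 2 weeks and at 56.3 to 118 CPM at 65 weeks (log2 1.16 ± 0.17 in females and 1.94 ± 0.15 in males, adjusted p = 0.000565 and 3.13e-05). Slc2a6 was higher (2.15 and 2.63) and Slc2a8 lower (-0.57 and -0.46). For Slc2a1, the main glucose transporter of many endothelia, the log2 fold change was -0.06 ± 0.15 in females and -0.32 ± 0.16 in males, and neither passed (adjusted p = 0.754 and 0.134). Slc2a3 was called in males alone (0.57, adjusted p = 0.0487, against -0.02 and 0.877 in females), and Slc16a1 in neither sex (0.23 and 0.45, adjusted p = 0.226 and 0.0986).

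Of 11 regulators of flux, 2 were higher and 3 lower in both sexes, again near the 22.7% and 24.5% of all genes. Pfkfb4, an isozyme of Pfkfb3, was higher by 1.21 in females and 1.80 in males on the log2 scale. Bpgm, which makes the bisphosphoglycerate that lowers the oxygen affinity of haemoglobin in red cells, was higher by 1.19 and 1.08. Pdk1 (-0.78 and -0.77), Pdk2 (-0.63 and -0.78) and Pdk4 (-3.03 and -3.16), kinases that switch off pyruvate dehydrogenase, were lower. Pdk4 was at 13.1 to 20.5 CPM at 2 weeks and at 1.31 to 2.69 CPM at 65 weeks. None of the 34 genes was called between the sexes at either age (edgeR), where 0.0332% of all genes were at 2 weeks and 0.042% at 65 weeks. Under an unadjusted p of 0.05 there were 9 at 2 weeks and 6 at 65 weeks, against 17.8% and 10.4% of all genes.

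**Figure D4:**
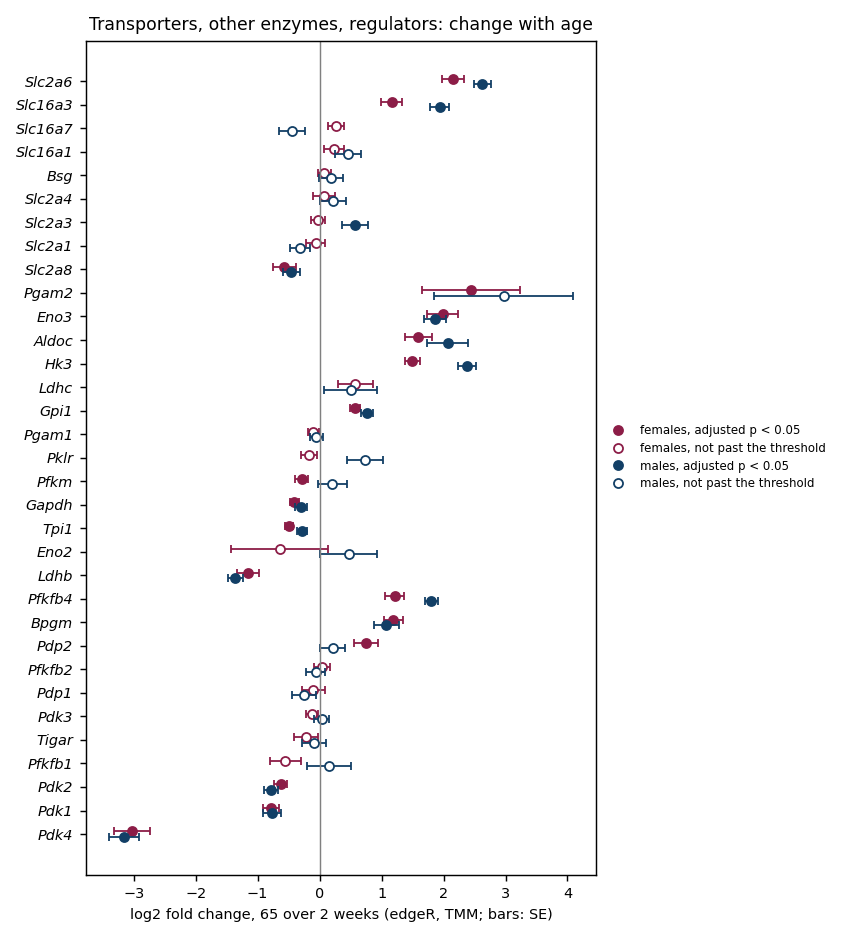
Log2 fold change between 65 and 2 weeks (horizontal axis, with SE) for tested genes of the transporter, enzyme and regulator lists, in females and in males; filled points passed an adjusted p of 0.05. Slc2a6, Hk3 and Pfkfb4 lie to the right and Pdk4 (-3.03 and -3.16) far to the left in both sexes.

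Whether males and females differed was asked at each age. At 2 weeks none of the 10 genes was called by edgeR or by DESeq2. Of all genes 0.0332% were called by edgeR, and 1.87% of genes with a count by DESeq2. Under an unadjusted p of 0.05 there were 2, against 17.8% of all genes, both lower in males: Hk1 (log2 -0.33 ± 0.12, adjusted p = 0.254) and Hk2 (-0.26 ± 0.09, adjusted p = 0.235). In both genes the 3 male libraries lay below the 3 female ones, which 21.7% of all genes did in either direction. For the other 8 genes the log2 difference lay between -0.02 and 0.12.

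At 65 weeks none of the 10 was called either, by edgeR or DESeq2, against 0.042% of all genes by edgeR and 1.78% of genes with a count by DESeq2. Pfkp (log2 -0.42 ± 0.14, adjusted p = 0.351), Pfkfb3 (-0.36 ± 0.12, adjusted p = 0.353) and Pkm (0.35 ± 0.11, adjusted p = 0.329) were under an unadjusted p of 0.05, where 10.4% of all genes were. In 6 of the 10 genes the CPM of the sexes did not overlap, against 15.5% of all genes, with Pfkp and Pfkfb3 lower and Aldoa, Pgk1, Pkm and Ldha higher in males. Without male 65-week replicate 3, the library that stood apart, Pfkp (-0.59, adjusted p = 0.0148) and Pkm (0.41, adjusted p = 0.0480) were called, where 5.65% of all genes were.

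**Figure D5:**
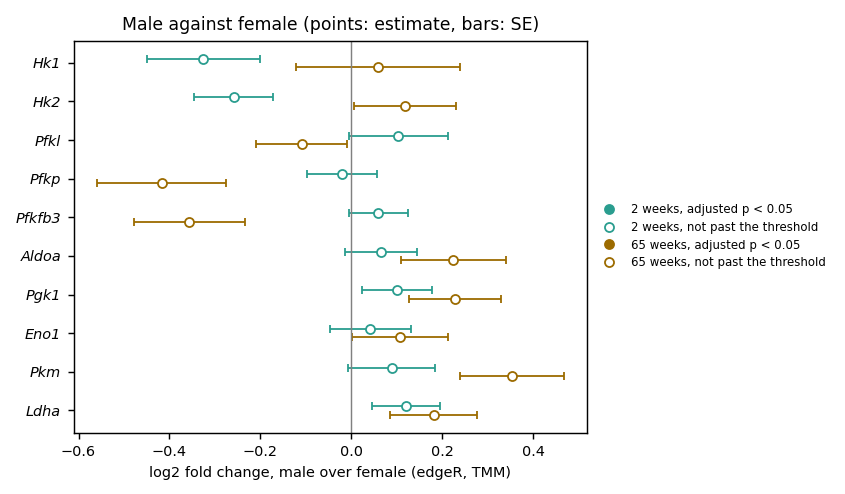
Difference between males and females as log2 fold change (horizontal axis) with its SE, at 2 weeks and at 65 weeks (6 libraries each); open points did not pass an adjusted p of 0.05. All points are open, and at 65 weeks Pfkp (-0.42) and Pfkfb3 (-0.36) lie farthest to the left and Pkm (0.35) farthest to the right.

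The change with age was compared between the sexes by the interaction over all 12 libraries. None of the 10 genes was called by edgeR or DESeq2, against 0.00635% of all genes by edgeR and 1.53% of genes with a count by DESeq2. By edgeR 3 were under an unadjusted p of 0.05, against 11.9% of all genes. The log2 change in males less that in females was -0.44 ± 0.14 for Pfkfb3 (adjusted p = 0.263), -0.42 ± 0.17 for Pfkp (adjusted p = 0.368) and 0.35 ± 0.13 for Hk2 (adjusted p = 0.321). Pfkp alone was called without male 65-week replicate 3 (-0.57, adjusted p = 0.0222), where 4.66% of all genes were. For Ldha the 95% interval of this difference was -0.18 to 0.26, and for Eno1 it was -0.22 to 0.31.

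The profiles of the 10 genes were last set beside all other protein-coding genes with a mean of at least 5 CPM. Likeness was the root mean square difference of centred log2 CPM over the 12 libraries, and the description carries no test. The 2 nearest of 10718 genes lay 0.0482 to 0.0980 away. Hk2 was nearest to Zfp36 and Arhgap9, Pfkp to Foxk1 and Uvrag, and Pfkfb3 to Trps1 and Naip2. Ldha was nearest to Ap1s1 and Tmem41a, and Pfkl to Elp3 and Sar1a. For Hk1 the nearest were Tnk2 and Eif4enif1, for Aldoa Gabarap and Ostf1, for Pgk1 Stx8 and Sem1, for Eno1 Map3k11 and Tmem164, and for Pkm Scp2 and Atp6v1b2. None of the 10 genes was among the 2 nearest of another.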

How the data were processed

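RNA of the samples described as BECs (4 groups, 3 libraries each) was read as pairs of 100 nt. The deposited table holds raw counts per Ensembl gene, which the authors did not normalise. The submitters' processing notes list TopHat2, HTSeq and mm9, whereas the methods of the study describe alignment with STAR to GRCm39 and counting with featureCounts, and this was not resolved. Use of strand, treatment of multiply mapping reads and the annotation release are not given in the sources used here. The kit was for total RNA, whereas the labels name polyA RNA.

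GENCODE M39 (GRCm39) supplied names, coordinates and lengths for 31052 IDs and held no entry for the other 6568. Differences were tested in R 4.3.3 by the quasi-likelihood F test of edgeR 4.0.16 after filterByExpr (at least 10 counts) and TMM scaling, with Benjamini-Hochberg adjustment over all genes and a threshold of 0.05, within the 6 libraries of each comparison (12 for the interaction), with no covariate. SE was derived from the F statistic. Ratios of counts had 0.5 added to each count. Copies were sought with BLAST 2.17.0 at 85% identity over 200 nt. Scripts were tested on simulated data. The alternatives were DESeq2 1.42.0, other scalings, filters and a threshold, thinning, added pseudogene counts, a block for the replicate number, a joint model of the 12 libraries, and leave-one-out fits.

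The members and lists were chosen with earlier results of these data known. Genes of the other lists were named if among the 3 largest rises or falls called in both sexes with a mean log2 CPM not under 2, or preset. No pair of replicates agreed within sampling noise. Intervals cover the spread between libraries only. Values of 1 gene of the enzyme list are not reported here; it is included in the counts of that list.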

Additional observations from a re-analysis of the deposited data

How the results depend on the processing

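The number of the 10 genes called between 65 and 2 weeks was 6 in females under every alternative that kept all libraries, where 41.3% to 62.8% of genes tested were called. It ran from 5 to 6 as each library was left out, where 48.1% to 56.6% were called. In males it was 7 and became 4 with scaling by library totals, where 54.6% of genes tested were called, and 4 at an adjusted p under 0.01, where 39.9% were. It ran from 4 to 7 as each library was left out, where 42.7% to 62% were called. The 4 was reached without each of the 2-week libraries, where 42.7%, 45.4% and 43.6% of genes tested were called. The joint model of the 12 libraries added Pfkp in males (adjusted p = 0.0174), where 60% of genes tested were called. The fit with no filter lost Pfkfb3 in males (adjusted p = 0.0648), where 38.7% were called. The cause of these changes was not tested, except that a stricter threshold admits fewer genes. The calls between the sexes stayed at 0 at 2 weeks under every alternative, and became 2 at 65 weeks and 1 for the interaction without male 65-week replicate 3, with ranges of 0 to 2 and 0 to 1 as each library was left out. The other glycolysis genes called ran from 15 to 21 in females and from 13 to 23 in males over all alternatives. Over these the share of all genes tested that were called ran from 41.3% to 62.8% in females and from 38.7% to 62% in males. Of the 900 values of single genes under alternatives, 24 lost a call and 7 gained 1; none reversed, and 16 changed sign where neither value was called. The 3 isozyme ratios kept their direction and their side of the threshold under every alternative: as each library was left out, the log2 change ran from 0.82 to 0.97 for Hk2 to Hk1, from 1.09 to 1.19 for Pfkp to Pfkl and from 0.58 to 0.72 for Ldha to Ldhb. Replicate numbers are shared by all groups, but samples with the same number did not deviate together (correlations from -0.355 to 0.14), so no pairing was assumed. With the replicate number as a block, 6 genes were called in females and 6 in males, where 54.7% and 50.8% of genes tested were called. Pfkfb3 lost its call in males (adjusted p = 0.0610). The ratios then gave an exact permutation p of 0.03125, the smallest that 64 relabelings allow. Every library held at least 693 counts for each of the 10 genes, and the spread between libraries exceeded counting error.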

Other observations

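Lists of pathways that branch from glycolysis were counted in the same way, where 22.7% of all genes were higher and 24.5% lower in both sexes. Of 7 genes of the pentose phosphate pathway, which makes NADPH and ribose from glucose phosphate, 5 were higher in both sexes and none was lower in both. Pgd rose by 0.72 ± 0.11 in females and 1.38 ± 0.13 in males on the log2 scale (edgeR, adjusted p = 0.000623 and 8.54e-05), G6pdx, its first enzyme, by 0.62 and 0.98, and Rpe by 0.64 and 0.64. Pgls was lower in females (-0.33, adjusted p = 0.00628) and at -0.19 in males (adjusted p = 0.0876). Of 16 genes of pyruvate dehydrogenase and the citrate cycle, 6 were lower and 1 higher in females, against 29.5% and 30.2% of all genes. In males 4 were lower and none was higher, against 28.5% and 27%. Suclg1 (-0.35 and -0.47), Fh1 (-0.45 and -0.31) and Idh3a (-0.33 and -0.27) were lower in both sexes, no more than the 24.5% of all genes. Of the 4 genes of gluconeogenesis tested, Pck2 (0.51 and 0.53) was higher and G6pc3 (-0.59 and -0.59) lower in both sexes.

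Of 16 genes of the hypoxia response list, 2 were higher and 4 lower in both sexes, near the shares of all genes. Epas1, which encodes a hypoxia-inducible factor abundant in endothelium, was at 244 to 371 CPM at 2 weeks and at 35.5 to 68.2 CPM at 65 weeks (log2 -2.27 ± 0.20 in females and -2.50 ± 0.18 in males). Hif1a was at -0.10 ± 0.10 in females (adjusted p = 0.406) and fell by 0.64 ± 0.18 in males (adjusted p = 0.0197), where male 65-week replicate 3, at 111 CPM, lay far above the other two, at 68.0 and 64.6 CPM. Vegfa (-1.96 and -1.02) and Ndrg1 (-1.44 and -1.29) were lower, and Egln3 (1.14 and 0.72) and Egln2 (0.35 and 0.38), prolyl hydroxylases that mark these factors for degradation, were higher. Egln3 is itself a known target of hypoxia. The marker lists of several cell types moved with age beside all of these values, from 116-fold lower for chondrocytes to 18.9-fold higher for B cells (2.96-fold without Ighm), and their part in them was not tested.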
